A study of Danio rerio with 8 samples.

Results

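Chemokine signals and neuropilins steer migrating cells, and 9 genes of these families were followed in neural crest-derived cells of zebrafish embryos that lack the zinc exporters Slc30a1a and Slc30a1b. The genes are the chemokine ligands *cxcl12a* and *cxcl12b*, their receptors *cxcr4a*, *cxcr4b* and *ackr3b*, and the neuropilins *nrp1a*, *nrp1b*, *nrp2a* and *nrp2b*. They were chosen as a family of guidance genes with earlier results of these data known and were found in the tables by symbol. Each symbol matched 1 gene identifier, so that they make up 9 of the 32057 identifiers of the series. All 9 are in the tables of both stages. RNA came from *sox10*:kikGR+ cells, which were sorted from dissociated embryos at 2 and 2.5 days post-fertilization (dpf), and was measured by SMART-seq, in which poly(A) RNA is copied into cDNA and amplified by PCR. There were 2 libraries in each of 4 groups, namely mutants at 2 dpf, controls at 2 dpf, mutants at 2.5 dpf and controls at 2.5 dpf.

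Mutants are homozygous for CRISPR/Cas9 knockout alleles of both *slc30a1a* and *slc30a1b* and have a small head and small eyes. Controls are embryos of normal appearance from such crosses and may carry several other genotypes at these loci; the labels call them only control. A single knockout gave no visible defect at these stages, and in the cross used to raise the share of mutants every embryo, controls included, lacks *slc30a1b*; which cross gave these libraries is not given in the sources used here. Every group carries the transgene *Tg(sox10:kikGR)*, in which the *sox10* promoter drives a fluorescent protein, so the sorted cells are those in which the reporter is visible and not a single cell type. Nothing in the labels says whether the 2 libraries of a group came from separate clutches, and the p-values measure only the spread between these libraries, which may be technical.

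Cxcl12 is a secreted chemokine that attracts cells carrying its receptor Cxcr4, and Ackr3 is a second Cxcl12 receptor that takes the ligand up and removes it. In zebrafish this circuit guides primordial germ cells, the lateral line primordium and neural crest cells (NCCs) of the head, and it also holds white blood cells in place. Neuropilins are coreceptors that, together with plexins, receive class 3 semaphorins and that also bind vascular endothelial growth factors. They steer axons and vessels and keep streams of migrating NCCs apart.

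Levels are given as FPKM, the fragments assigned to a gene, scaled by the authors to transcript length and to the size of each library, so that levels of different genes can be set side by side. Per library, the FPKM add up to 609836 to 697012, 22265 to 24327 genes lie above 0, and the number of reads behind them is unknown. The *slc30a1a* level checks the labels, since it was 5.96 and 7.06 FPKM in mutants at 2 dpf, against 12.12 and 11.74 FPKM in controls, and 5.44 and 4.98 FPKM in mutants at 2.5 dpf, against 8.56 and 11.22 FPKM in controls (log2 fold change −0.79 and −0.80, limma adjusted p = 0.0676 and 0.243). *slc30a1b* was at 0.14 FPKM or less in all 8 libraries and checks nothing. Of the neural crest markers, *sox10* was at 47.59 to 156.01 FPKM in the 8 libraries and *crestin* at only 0.18 to 0.51 FPKM. *sox10* overlapped between the groups at 2 dpf. At 2.5 dpf it was at 110.62 and 85.45 FPKM in mutants, against 121.61 and 156.01 FPKM in controls (limma adjusted p = 0.442). The 7 neural crest markers tested had a median log2 fold change of 0.31 at 2 dpf and −0.085 at 2.5 dpf, against 0.18 and 0.016 for all genes, and none was called. Markers of other cells were also found, since red blood cell markers summed to 4197 and 5685 FPKM in mutants at 2 dpf and 11765 and 17952 FPKM in controls. Of the 8 red blood cell identifiers tested, 6 were called lower, among them both identifiers of *hbae1.1*. Of the 7 lens markers tested, 6 were called lower at this stage, against 3.52% of all genes called in either direction. At 2.5 dpf no marker of any list was called, but 8 of 8 skeletal muscle markers had a positive log2 fold change (median 1.09, against 0.016 for all genes), and their sum was 112 and 243 FPKM in mutants, against 71.6 and 81.2 FPKM in controls. Of these 8, 7 lay above controls without overlap, against 24.3% of all genes tested. The part of these cells in the levels of the 9 genes was not tested. In bulk RNA of sorted cells, fewer cells of a type and less RNA per cell cannot be told apart.

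At 2 dpf the receptor gene *cxcr4a* was the only one of the 9 genes to pass the test between mutants and controls, and it rose about 3-fold. The other *cxcr4* gene, *cxcr4b*, lay in the opposite direction, and the scavenger receptor *ackr3b* and the neuropilin *nrp2a* were higher in both mutant libraries but missed the threshold. The ligand *cxcl12a*, which had the highest mean of the 9 genes in all 4 groups, overlapped between mutants and controls at either stage. At 2.5 dpf none of the 9 genes passed the test.

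**Figure D1:**
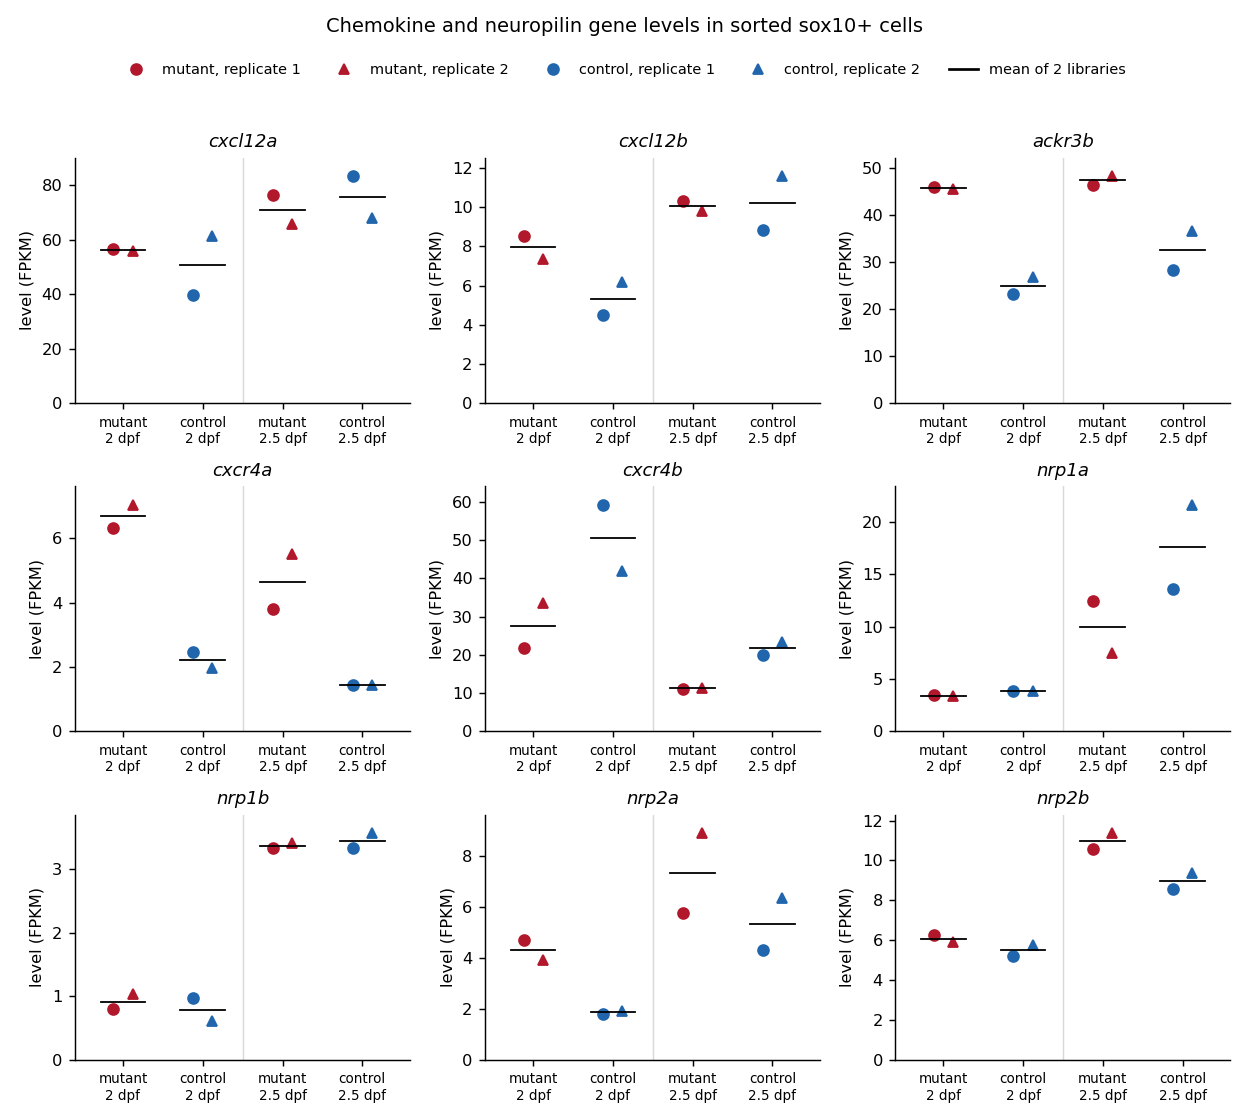
Level of each of the 9 genes in FPKM (linear axes from 0), with 2 libraries per group as a circle (replicate 1) and a triangle (replicate 2) and a black line at their mean, and with mutants in red left of controls in blue at each stage. The *cxcr4a* and *ackr3b* points of mutants lie above those of controls at 2 and at 2.5 dpf, the *cxcr4b* points of mutants lie below those of controls at both stages, and the *cxcl12a* points overlap.

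Genes were compared with limma on log2(FPKM + 1), for those whose mean over the libraries compared was 0.5 FPKM or more, and were called at a Benjamini-Hochberg adjusted p under 0.05 over all genes tested. All 9 genes passed the filter in every comparison. The added 1 FPKM makes a log2 fold change smaller than the change of the FPKM themselves, most of all for low genes such as *nrp1b*. At 2 dpf, 1 of the 9 genes was called, against 3.52% of the 15453 genes tested, and at 2.5 dpf 0 of the 9 were called, against 0% of 17379 genes. At an unadjusted p under 0.05, limma found 5 of the 9 genes at 2 dpf, against 24.6% of all genes, and 3 of the 9 at 2.5 dpf, against 12.2% (2128 genes). The median log2 fold change at 2 dpf was 0.18 for the 9 genes and 0.18 for all genes tested, and at 2.5 dpf the medians were −0.010 and 0.016. With 2 libraries in each group the smallest p of a two-sided exact permutation test is 0.333, and no such p is given for single genes.

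*cxcl12a* (ENSDARG00000037116), the Cxcl12 gene known for guiding germ cells and the lateral line primordium, was at 56.68 and 55.80 FPKM in mutants at 2 dpf, against 39.80 and 61.48 FPKM in controls. At 2.5 dpf it was at 76.39 and 65.74 FPKM in mutants and 83.41 and 68.14 FPKM in controls. The groups overlapped at either stage, and the spread between the 2 control libraries at 2 dpf was larger than the difference between the group means. The 95% interval of the log2 fold change ran from −0.38 to 0.74 at 2 dpf and from −0.56 to 0.38 at 2.5 dpf. It included 0 at either stage, and a change of a size within it is not excluded by these libraries.

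*cxcl12b* (ENSDARG00000055100), the duplicate of this ligand gene, was much lower in every library. It was at 8.54 and 7.38 FPKM in mutants at 2 dpf, against 4.49 and 6.18 FPKM in controls, and at 10.30 and 9.79 FPKM in mutants at 2.5 dpf, against 8.82 and 11.59 FPKM in controls. At 2 dpf both mutant libraries lay above both controls, but the log2 fold change of 0.51 (SE 0.21) missed the threshold with limma (adjusted p = 0.194), and at 2.5 dpf the groups overlapped. The 2 ligand genes together reached 65.2 and 63.2 FPKM in mutants at 2 dpf, against 44.3 and 67.7 FPKM in controls, and *cxcl12a* made up 85.5 to 90.9% of that sum in all 8 libraries.

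*cxcr4a* (ENSDARG00000057633) encodes one of the Cxcr4 receptors, known in zebrafish from endoderm, vessels and cranial NCCs. It was at 6.31 and 7.05 FPKM in mutants at 2 dpf, against 2.47 and 1.96 FPKM in controls, and at 3.80 and 5.51 FPKM in mutants at 2.5 dpf, against 1.43 and 1.45 FPKM in controls. Every mutant library lay above every control library of either stage. At 2 dpf the mean was 3.02 times that of controls and the log2 fold change was 1.26 (SE 0.18, 95% interval 0.81 to 1.70, adjusted p = 0.0273 with limma), the 205th lowest p of 15453. After the libraries were rescaled to a common median ratio, which took off the shift of all genes, it was 1.05 (adjusted p = 0.0429). The call was lost without a filter (adjusted p = 0.0866), with quantile normalization (adjusted p = 0.0546), and without any single one of the 4 libraries of 2 dpf (limma adjusted p 0.0977 to 0.147), while the log2 fold change stayed between 1.05 and 1.56 over all alternatives.

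At 2.5 dpf the *cxcr4a* mean was 3.23 times that of controls, with a log2 fold change of 1.20 (SE 0.22), but with limma the adjusted p was 0.151 in a comparison where no gene of the series was called. The effect did not differ detectably between the stages, since the difference of the log2 fold changes was −0.063 with an interval of −0.71 to 0.58. A single fit of all 8 libraries, an alternative that shares the spread between stages, called 249 genes at 2.5 dpf, *cxcr4a* among them (limma adjusted p = 0.0356). The rise of *cxcr4a* at 2 dpf was among the results known when the 9 genes were chosen, and it is for that reason not independent evidence on guidance genes.

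*cxcr4b* (ENSDARG00000041959), the receptor gene of germ cells, the lateral line primordium and white blood cells, lay the other way. It was at 21.70 and 33.43 FPKM in mutants at 2 dpf, against 59.28 and 41.93 FPKM in controls, and at 11.18 and 11.39 FPKM in mutants at 2.5 dpf, against 20.00 and 23.35 FPKM in controls. All mutant values were lower than the control values of their stage, with a mutant mean of 54.5% and 52.1% of that of controls. The log2 fold change was −0.86 (SE 0.27, adjusted p = 0.122 with limma) at 2 dpf and −0.88 (SE 0.18, adjusted p = 0.177) at 2.5 dpf, so neither was called.

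*ackr3b* (ENSDARG00000058179), which encodes the receptor that clears Cxcl12, was at 45.94 and 45.51 FPKM in mutants at 2 dpf, against 23.30 and 26.77 FPKM in controls. At 2.5 dpf it was at 46.54 and 48.35 FPKM in mutants and 28.44 and 36.62 FPKM in controls. The 4 mutant libraries lay within 3 FPKM of each other and above all 4 controls. The log2 fold change was 0.85 (SE 0.17, 95% interval 0.44 to 1.25) at 2 dpf, outside the threshold with limma (adjusted p = 0.0514), and 0.54 (SE 0.19, adjusted p = 0.36) at 2.5 dpf. With median-ratio rescaling the value at 2 dpf was 0.59 (limma adjusted p = 0.123), and with quantile normalization it was 0.70 (adjusted p = 0.0856). Its duplicate *ackr3a*, named here after its values were seen, was far lower, at 1.46 and 1.24 FPKM in mutants at 2 dpf and 0.39 and 0.73 FPKM in controls (adjusted p = 0.107), and at 1.35 and 2.18 FPKM in mutants at 2.5 dpf and 0.46 and 0.95 FPKM in controls (adjusted p = 0.358).

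**Figure D2:**
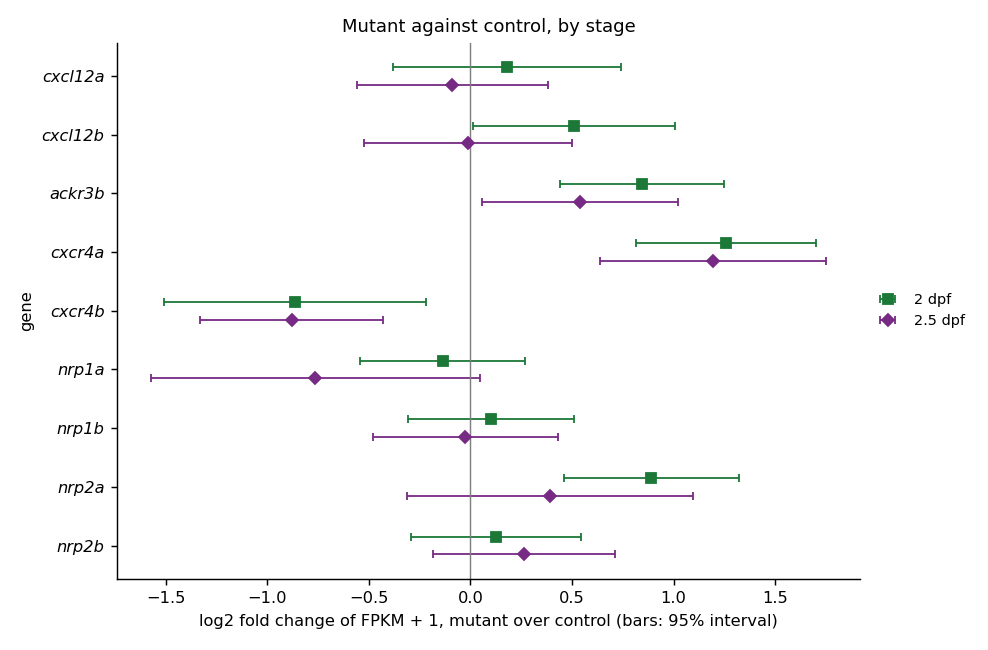
Log2 fold change of FPKM + 1, mutant over control, for each of the 9 genes at 2 dpf (green squares) and 2.5 dpf (purple diamonds), with 95% intervals from limma that are not adjusted for the number of genes. The values of *cxcr4a* are 1.26 and 1.20 and those of *cxcr4b* are −0.86 and −0.88, while the intervals of *cxcl12a* include 0 at either stage.

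Since the direction was alike at 2 and 2.5 dpf for the 3 receptor genes, a fit of genotype over all 8 libraries, with stage as a second factor, was added after these values were seen. In this fit 3 of the 9 genes were called, against 9.01% of 16703 genes. *cxcr4a* was higher in mutants by a log2 of 1.23 (SE 0.13, adjusted p = 0.00142 with limma), *ackr3b* was higher by 0.69 (SE 0.13, adjusted p = 0.0133), and *cxcr4b* was lower, at −0.87 (SE 0.17, adjusted p = 0.0154). *nrp2a*, at 0.64, was not called (limma adjusted p = 0.064). At both stages, the mutant libraries lay above both controls of their stage for 3 of the 9 genes (*cxcr4a*, *ackr3b* and *nrp2b*). They lay below both for 2 genes (*cxcr4b* and *nrp1a*). One or the other was the case for 22.6% of all genes. Without replicate 1 of the mutants at 2 dpf the adjusted p of *ackr3b* was 0.0503, and without replicate 1 of the controls at 2 dpf that of *cxcr4b* was 0.0531. The fit uses the same libraries as the comparisons within stages and is no further evidence. None of the 9 genes had a genotype effect that differed between the stages (limma adjusted p 0.859 to 0.995), nor did any of the 16703 genes tested, of which 902 (5.4%) had an unadjusted p under 0.05 and 0% passed.

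Ratios within a library do not depend on how the libraries were scaled against each other, and a few were formed after the values were seen, so they are described without a test. Within the *cxcr4* pair, *cxcr4a* made up 22.5 and 17.4% of the summed FPKM in mutants at 2 dpf, against 4.0 and 4.47% in controls. At 2.5 dpf its share was 25.4 and 32.6% in mutants and 6.67 and 5.85% in controls. The share was thus 4.72 times as high in mutants as in controls at 2 dpf and 4.63 times at 2.5 dpf. *cxcr4b* was the more abundant of the pair in all 8 libraries, so that the summed *cxcr4* level was lower in mutants, at 28.0 and 40.5 FPKM at 2 dpf against 61.8 and 43.9 FPKM in controls, and at 15.0 and 16.9 FPKM at 2.5 dpf against 21.4 and 24.8 FPKM in controls.

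The balance of the scavenger and signalling receptors differed as well. The level of *ackr3b* was 1.64 and 1.12 times the summed *cxcr4* level in mutants at 2 dpf, against 0.377 and 0.610 times in controls, and 3.11 and 2.86 times in mutants at 2.5 dpf, against 1.33 and 1.48 times in controls. At 2 dpf *ackr3b* thus exceeded the *cxcr4* pair in both mutant libraries and lay under it in both controls. For each unit of *ackr3b*, the 2 ligand genes were at 1.42 and 1.39 units in mutants at 2 dpf, against 1.90 and 2.53 in controls, and at 1.86 and 1.56 in mutants at 2.5 dpf, against 3.24 and 2.18 in controls. Mutants lay below controls at either stage in this ratio, while the summed ligand level itself overlapped between the groups.

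**Figure D3:**
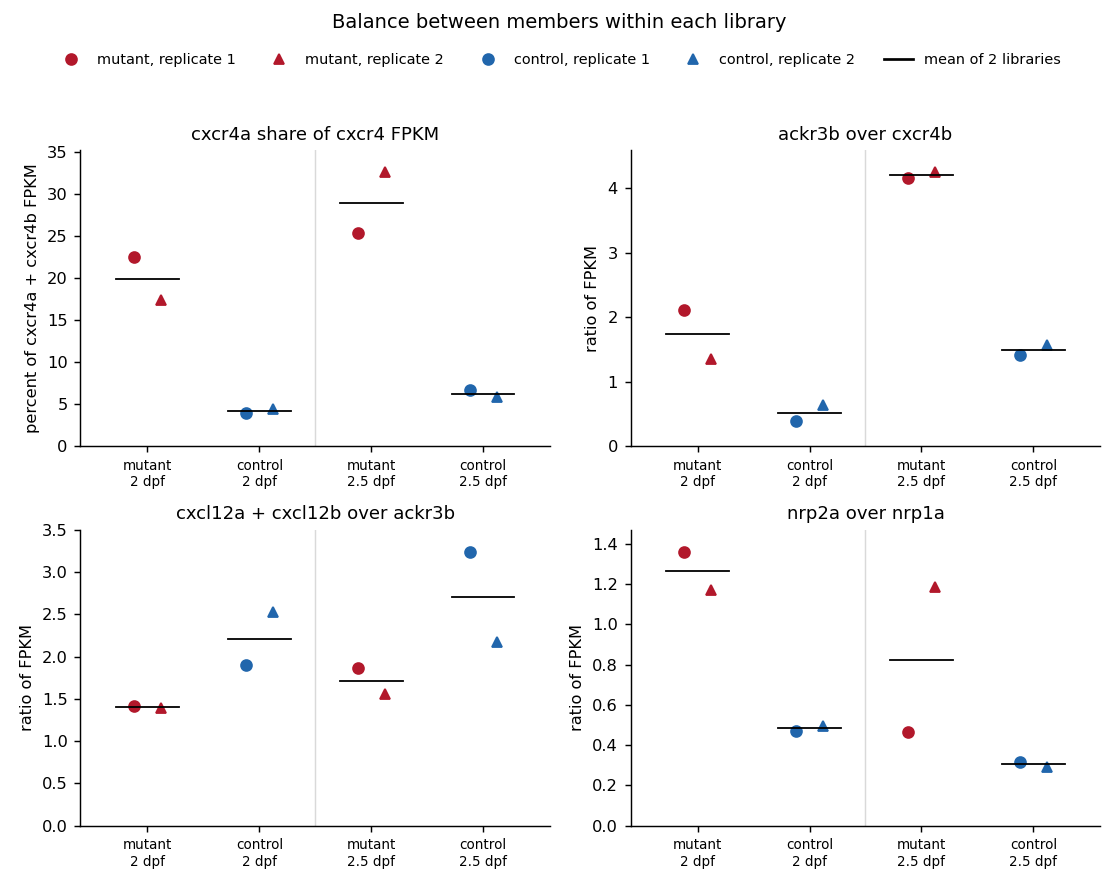
Within-library ratios of FPKM (linear axes from 0), as a circle (replicate 1) and a triangle (replicate 2) per library with a black line at the mean of the 2 libraries, mutants in red left of controls in blue. The *cxcr4a* share of *cxcr4* FPKM lies between 17.4 and 32.6% in the 4 mutant libraries and between 4.0 and 6.67% in the 4 control libraries, and the other 3 ratios also do not overlap within a stage.

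*cxcr4b* is a receptor of white blood cells, and markers of these cells were abundant in the sorted material. The 10 white blood cell markers, led by the neutrophil lysozyme *lyz*, summed to 15363 and 24573 FPKM in mutants at 2 dpf, against 40166 and 41598 FPKM in controls. At this stage 8 of the 10 had a negative log2 fold change, 6 lay below controls without overlap, against 12.1% of all genes tested, and none was called by limma, with 4 at an unadjusted p under 0.05, against 24.6% of all genes in either direction. *lyz* alone made up 93.9 to 95.9% of the sum at 2 dpf, and without it the sum was 797 and 1488 FPKM in mutants, against 1640 and 1942 FPKM in controls. At 2.5 dpf the sum was 12948 and 13135 FPKM in mutants, within the 10275 and 15022 FPKM of controls. Without *lyz* it was 1325 and 923 FPKM in mutants, against 1944 and 1237 FPKM in controls, and the groups overlapped. Of the 10 markers 7 were negative at 2.5 dpf, although the neutrophil peroxidase *mpx* was higher in mutants, at 50.31 and 48.15 FPKM against 31.27 and 30.86 FPKM in controls. In the genotype fit over both stages, in which *cxcr4b* was called lower, 2 of the 10 markers were called lower and 0 higher. The share called over all genes was 9.01% in either direction.

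The macrophage genes did not all lie in one direction at 2.5 dpf. *mpeg1.1*, a macrophage perforin, was at 39.00 and 28.65 FPKM in mutants at 2.5 dpf and 59.57 and 75.72 FPKM in controls, and *csf1ra*, a growth factor receptor of macrophages and xanthophores, was at 3.15 and 2.59 FPKM in mutants and 7.14 and 5.13 FPKM in controls. The macrophage matrix protein gene *mfap4* was at 531.86 and 426.51 FPKM in mutants and 1089.22 and 650.19 FPKM in controls. The scavenger receptor gene *marco* lay the other way, at 15.50 and 18.80 FPKM in mutants and 13.45 and 13.67 FPKM in controls. None of these 4 genes passed the test across all genes at 2.5 dpf. No white blood cell marker was at 0 in both libraries of a group, and the part of white blood cells in the *cxcr4b* difference was not tested.

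The lateral line also uses *cxcr4b*, and its markers were read together with those of the otic epithelium. Of 10 lateral line and otic epithelium markers, 9 were tested at 2 dpf and 8 of these had a positive log2 fold change, with a median of 0.27 beside 0.18 for all genes. At this stage 5 lay above controls without overlap, against 44.8% of all genes, and 1 lay below, against 12.1%. The lower one was *prox1a*, at 1.06 and 1.20 FPKM in mutants and 3.54 and 2.01 FPKM in controls (log2 fold change −0.80, limma adjusted p = 0.108). *cldnb* overlapped between the groups, at 42.49 and 34.16 FPKM in mutants and 38.97 and 36.26 FPKM in controls. The otic and placodal gene *eya1* was called higher, at 18.84 and 18.96 FPKM in mutants and 9.15 and 7.86 FPKM in controls (log2 fold change 1.07, adjusted p = 0.033 with limma). At 2.5 dpf 4 of the 9 were positive and none was called. Without overlap, 2 lay above controls, against 24.3% of all genes, and 3 below, against 19.2%. At an unadjusted p under 0.05 limma found 2 higher and 2 lower, against 12.2% of all genes in either direction. With both stages in 1 genotype fit, 2 of the 9 were called higher and 1 lower, against 9.01% of all genes in either direction. The part of these cells in the *cxcr4b* difference was not tested either.

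**Figure D4:**
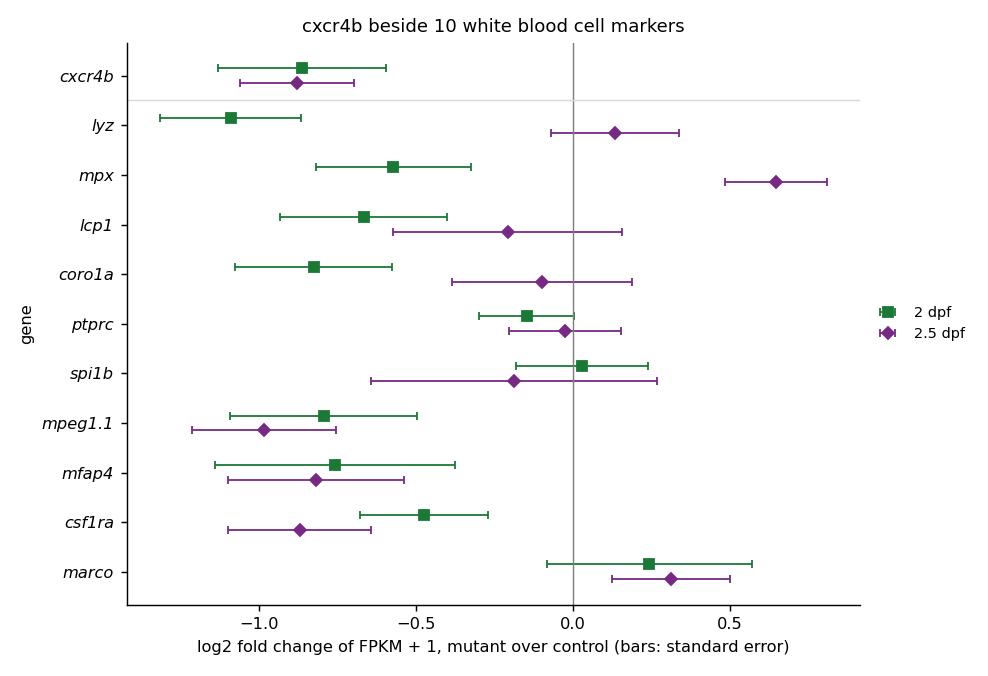
Log2 fold change of FPKM + 1, mutant over control, with its standard error, for *cxcr4b* (top) and 10 white blood cell markers at 2 dpf (green squares) and 2.5 dpf (purple diamonds). At 2 dpf 8 of the 10 markers lie below 0, and at 2.5 dpf 7 of 10 do, with *mpx*, *lyz* and *marco* above 0.

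For *cxcr4a*, *ackr3b* and the neuropilins, which vessels and arch mesenchyme also use, the levels of those cells' markers were read in the same way. Of 10 endothelial markers, the defining genes *cdh5* and *kdrl* were at 0.05 to 0.84 and 0.24 to 0.85 FPKM in the 8 libraries, and 6 of the 10 had a mean under 1 FPKM in each group. At 2 dpf *cdh5* was at 0.15 FPKM in both mutant libraries, against 0.06 and 0.05 FPKM in controls. *kdrl* was at 0.42 and 0.85 FPKM in mutants, against 0.26 and 0.41 FPKM in controls. *tie1* lay the other way, at 0.19 and 0.13 FPKM in mutants and 0.22 and 0.24 FPKM in controls. At 2.5 dpf *kdrl* was at 0.34 and 0.72 FPKM in mutants and 0.28 and 0.24 FPKM in controls, while *cdh5* overlapped. The endothelial sum was 21.0 and 23.2 FPKM in mutants at 2 dpf, against 12.4 and 16.9 FPKM in controls, and 21.2 and 32.3 FPKM in mutants at 2.5 dpf, against 15.8 and 19.7 FPKM in controls. *egfl7* had the highest level of the list. Of the 10 markers, 6 passed the filter at 2 dpf and 5 at 2.5 dpf, while *cdh5*, *kdrl*, *tie1* and *she* were tested at neither stage. None was called by limma at either stage. At an unadjusted p under 0.05 there were 2 at each stage, both higher, against 24.6% of all genes at 2 dpf and 12.2% at 2.5 dpf in either direction. Without overlap, 3 of the 6 tested at 2 dpf lay above controls, against 44.8% of all genes, and 1 below, against 12.1%. At 2.5 dpf 3 of the 5 lay above, against 24.3%, and 1 below, against 19.2%. The genotype fit over both stages called 1 of 5 higher and 0 lower, against 9.01% of all genes in either direction.

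Markers of arch ectomesenchyme, the NCCs that fill the pharyngeal arches, were abundant, and their sums were higher in mutants, but not every marker was. Their sum was 679 and 721 FPKM in mutants at 2 dpf, against 367 and 626 FPKM in controls, and 692 and 799 FPKM in mutants at 2.5 dpf, against 466 and 675 FPKM in controls. At 2 dpf 6 of the 8 markers lay above controls without overlap, against 44.8% of all genes, and the homeobox gene *prrx1b* was called higher (log2 fold change 1.48, adjusted p = 0.037 with limma), while the arch gene *barx1* had a negative log2 fold change of −0.67. At 2.5 dpf 4 of the 8 lay above controls without overlap, against 24.3% of all genes, and none was called. *hand2*, *barx1*, *fli1a* and *dlx2a* overlapped between the groups at this stage. Much of the sum is *twist1a*, which was at 204.02 and 238.38 FPKM in mutants at 2.5 dpf, against 94.93 and 153.45 FPKM in controls. Over both stages the genotype fit called 3 of the 8 higher and 0 lower, against 9.01% of all genes in either direction. None of these 8 was at 0. The part of any of these cell types in the receptor levels was not tested.

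Among the neuropilins, *nrp2a* (ENSDARG00000096546) had the largest difference between genotypes at 2 dpf. This coreceptor gene, whose human counterpart binds semaphorin 3F, was at 4.71 and 3.91 FPKM in mutants at 2 dpf, against 1.79 and 1.92 FPKM in controls, and at 5.76 and 8.90 FPKM in mutants at 2.5 dpf, against 4.29 and 6.35 FPKM in controls. The groups were apart at 2 dpf and overlapped at 2.5 dpf. The log2 fold change of 0.89 (SE 0.18, 95% interval 0.46 to 1.32) at 2 dpf fell short of the threshold with limma (adjusted p = 0.0526), and at 2.5 dpf the adjusted p was 0.652. With median-ratio rescaling the value at 2 dpf was 0.70 (limma adjusted p = 0.106), and with quantile normalization it was 0.71 (adjusted p = 0.121).

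*nrp1a* (ENSDARG00000102153), a neuropilin of vessels and motor axons, lay slightly below controls at 2 dpf, at 3.46 and 3.34 FPKM in mutants and 3.81 and 3.86 FPKM in controls. At 2.5 dpf it was at 12.43 and 7.52 FPKM in mutants, against 13.55 and 21.64 FPKM in controls. The groups did not overlap, but libraries of 1 group differed by more than the nearest libraries of the 2 groups at 2.5 dpf, and the log2 fold changes of −0.14 and −0.76 (SE 0.32) were not called (limma adjusted p = 0.649 and 0.43). It is the only one of the 9 genes whose transcripts differ between the tables, with 4 transcripts at 2 dpf and 6 at 2.5 dpf.

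*nrp1b* (ENSDARG00000027290) was the lowest of the 9 at 2 dpf, at 0.80 and 1.03 FPKM in mutants and 0.97 and 0.61 FPKM in controls, and was at 3.33 and 3.41 FPKM in mutants at 2.5 dpf, against 3.33 and 3.57 FPKM in controls. The groups overlapped at 2 dpf and shared their lowest value at 2.5 dpf. *nrp2b* (ENSDARG00000038446) was at 6.24 and 5.92 FPKM in mutants at 2 dpf, against 5.21 and 5.78 FPKM in controls, and at 10.59 and 11.38 FPKM in mutants at 2.5 dpf, against 8.57 and 9.37 FPKM in controls. It was higher in both mutant libraries at either stage, by a log2 of 0.13 and 0.27, which is within the error of the fit (limma adjusted p = 0.685 and 0.629), and at 2 dpf the sign turned with median-ratio rescaling, to −0.10.

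Within the neuropilins the balance of *nrp2a* and *nrp1a* differed between genotypes. The ratio of *nrp2a* to *nrp1a* was 1.36 and 1.17 in mutants at 2 dpf, against 0.470 and 0.497 in controls, and 0.463 and 1.18 in mutants at 2.5 dpf, against 0.317 and 0.293 in controls. *nrp2a* was the more abundant of the pair in 3 of the 4 mutant libraries and in none of the 4 control libraries. The 4 neuropilins together reached 15.2 and 14.2 FPKM in mutants at 2 dpf, against 11.8 and 12.2 FPKM in controls, and 32.1 and 31.2 FPKM in mutants at 2.5 dpf, within the 29.7 and 40.9 FPKM of controls.

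Counted over the 9 genes at 2 dpf, the mutant libraries lay above both controls for 5 genes, against 44.8% of all genes tested, and below both for 2 genes, against 12.1%. At 2.5 dpf they lay above for 3 genes, against 24.3%, and below for 2, against 19.2%.

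The order of the levels also differed between the groups. In mutants at 2 dpf the order was *cxcl12a*, *ackr3b*, *cxcr4b*, *cxcl12b*, *cxcr4a*, *nrp2b*, *nrp2a*, *nrp1a* and *nrp1b*, with no overlap between neighbours. In controls at 2 dpf *cxcr4b* stood level with *cxcl12a*, with means of 50.6 FPKM for either gene and libraries that overlapped, and *ackr3b* came after them. *cxcr4a* stood only before *nrp2a* and *nrp1b* there, and the neighbours *nrp2b* and *cxcl12b* overlapped.

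In mutants at 2.5 dpf *cxcl12a* and *ackr3b* again led, *cxcr4b* overlapped with *nrp2b*, the genes *cxcl12b*, *nrp1a* and *nrp2a* overlapped with their neighbours, and *cxcr4a* stood above *nrp1b* only. In controls at 2.5 dpf the same 2 genes led, *cxcr4b* overlapped with *nrp1a* and *cxcl12b* with *nrp2b*, and *cxcr4a* was the lowest of the 9. Against all identifiers of its table, *cxcr4a* was above 77.4% in mutants at 2 dpf and 64.7% in controls, and above 74.6% in mutants at 2.5 dpf and 59.0% in controls, while *cxcl12a* was above 94.8 to 96.6% in the 4 groups.

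Between the stages, neuropilin levels were higher and *cxcr4b* levels lower at 2.5 dpf than at 2 dpf. Each stage has its own table, so stage and table cannot be told apart. In controls, 4 of the 9 genes were called, 3 of them higher at 2.5 dpf, against 19.1% of all genes, and 1 lower, against 2.48%. In mutants, 1 of the 9 was called, a higher one, against 2.54% of all genes, and none was called lower, against 0.261%, with 1 lower at an unadjusted p under 0.05 beside 2.85% of all genes. The median log2 fold change was 0.33 for the 9 genes and 0.25 for all genes in mutants, and 0.62 for the 9 genes and 0.44 for all genes in controls.

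*nrp1a* had the largest change in controls, with a mean of 17.6 FPKM at 2.5 dpf and 3.84 FPKM at 2 dpf and a log2 fold change of 1.91 (SE 0.26, adjusted p = 0.0178 with limma). In mutants its mean was 9.98 FPKM at 2.5 dpf and 3.40 FPKM at 2 dpf, with a log2 fold change of 1.28 (adjusted p = 0.0591). This gene is listed with 4 transcripts at 2 dpf and 6 at 2.5 dpf, and the part of that difference in its change was not tested. *nrp1b* was called in both genotypes, with a log2 fold change of 1.19 (SE 0.16, adjusted p = 0.0414) in mutants and 1.32 (SE 0.20, adjusted p = 0.0204) in controls. *nrp2a* was called higher in controls, by 1.13 (SE 0.23, adjusted p = 0.0305), but not in mutants (0.63, adjusted p = 0.161), and *nrp2b* was called in neither (adjusted p = 0.0602 in mutants and 0.0634 in controls).

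*cxcr4b* was called lower at 2.5 dpf in controls, where its mean was 21.7 FPKM at 2.5 dpf and 50.6 FPKM at 2 dpf (log2 fold change −1.17, SE 0.23, adjusted p = 0.0277 with limma). In mutants the log2 fold change was −1.19, with means of 11.3 FPKM at 2.5 dpf and 27.6 FPKM at 2 dpf (adjusted p = 0.0591). The summed white blood cell markers were lower at 2.5 dpf than at 2 dpf in either genotype, but most of that sum is *lyz* and the list was mixed. Of its 10 genes, 7 had a positive log2 fold change in mutants (median 0.18, against 0.25 for all genes). None was called by limma, with 1 higher and 2 lower at an unadjusted p under 0.05, against 2.85% of all genes lower. In controls 6 were positive (median 0.15, against 0.44 for all genes). *lyz*, *mpx* and *coro1a* were called lower, against 2.48% of all genes, and *csf1ra* was called higher, against 19.1%. *cxcr4a* was also lower at 2.5 dpf in both genotypes, without a call (log2 fold change −0.46 in mutants and −0.39 in controls). The ligands and *ackr3b* were not called in either genotype.

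With median-ratio rescaling 3 of the 9 genes were called in controls (*cxcr4b* lower, *nrp1a* and *nrp1b* higher) and none in mutants, where *nrp1b* had an adjusted p of 0.0663 with limma, and the signs of *cxcl12a* and *ackr3b* turned in both genotypes and that of *cxcl12b* in mutants. Without either library of controls at 2 dpf none of the 9 was called in controls (adjusted p 0.109 to 0.153 for the 4 genes), and without any single mutant library *nrp1b* was not called in mutants (0.0931 to 0.303). Whether the change between stages differed between genotypes is the same test as the one above of the genotype effect between stages, in which none of the 9 passed.

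**Figure D5:**
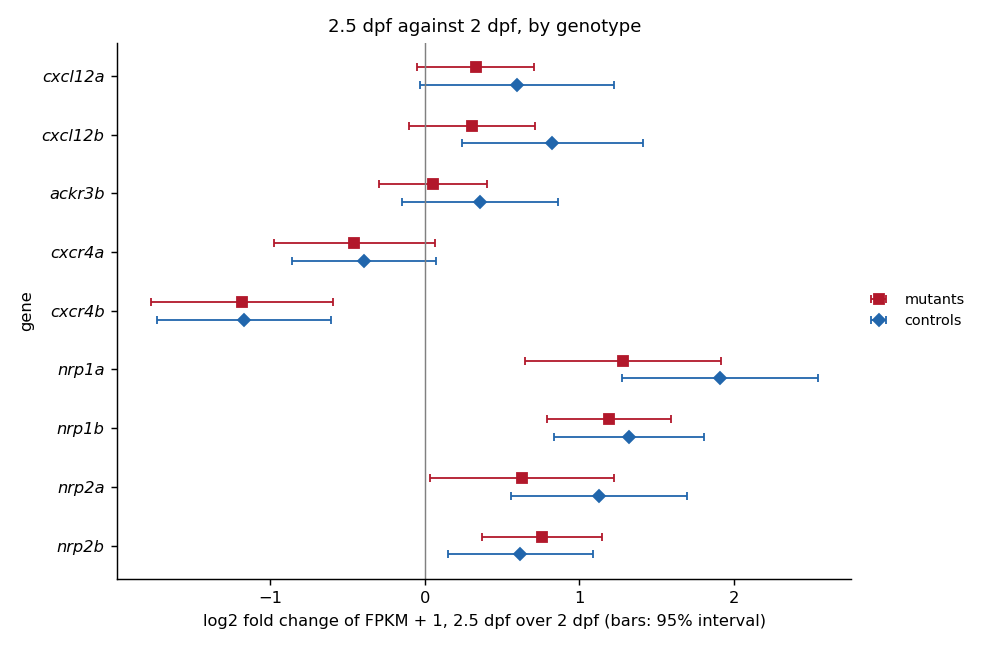
Log2 fold change of FPKM + 1, 2.5 dpf over 2 dpf, for each of the 9 genes in mutants (red squares) and controls (blue diamonds), with 95% intervals from limma that are not adjusted for the number of genes. The 4 neuropilins lie above 0 in both genotypes, with *nrp1a* at 1.28 in mutants and 1.91 in controls, and *cxcr4b* lies at −1.19 and −1.17. The listed transcripts of *nrp1a* differ between the stages, with 4 at 2 dpf and 6 at 2.5 dpf.

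Other parts of these guidance pathways were read from lists of genes. Of the 24 other chemokines and chemokine receptors listed, 9 were tested at 2 dpf. Of these, 1 was called higher and 1 lower, against 3.52% of all genes called in either direction. At an unadjusted p under 0.05, limma found 4 higher and 3 lower, against 24.6% of all genes in either direction. *cxcl14*, a chemokine of epithelia, rose in mutants, at 40.91 and 36.67 FPKM at 2 dpf against 10.28 and 10.56 FPKM in controls (log2 fold change 1.80, SE 0.17, adjusted p = 0.0071 with limma). *cxcl8a*, which attracts neutrophils, fell, at 1.36 and 1.12 FPKM in mutants against 4.29 and 8.10 FPKM in controls (log2 fold change −1.63, SE 0.28, adjusted p = 0.037). At 2.5 dpf *cxcl14* was at 36.02 and 49.80 FPKM in mutants and 16.08 and 32.22 FPKM in controls (adjusted p = 0.42), *cxcl8a* overlapped between the groups, and none of the 11 genes of this list tested was called.

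Of the partners of the neuropilins, 7 of the 12 class 3 semaphorins listed, 5 of the 6 plexins of types A and D and 4 of the 12 vascular endothelial growth factor genes and receptors were tested at 2 dpf. No gene of these 3 lists was called at either stage. At an unadjusted p under 0.05 limma found 3 semaphorins at 2 dpf (2 higher, 1 lower), against 24.6% of all genes in either direction. The semaphorin with the lowest p was *sema3fb*, at 1.57 and 1.62 FPKM in mutants at 2 dpf and 0.78 and 0.81 FPKM in controls (log2 fold change 0.53, adjusted p = 0.102). The lower one was *sema3d*, named here after its values were seen, at 8.32 and 6.90 FPKM in mutants and 10.52 and 24.78 FPKM in controls (adjusted p = 0.167), and at 2.5 dpf at 13.53 and 8.03 FPKM in mutants and 20.78 and 63.00 FPKM in controls (adjusted p = 0.311). Its 2 control libraries differed more than the groups did. At 2.5 dpf limma found 1 semaphorin, *sema3d*, and 1 growth factor gene at an unadjusted p under 0.05, both lower, against 12.2% of all genes in either direction.

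The other lowest p values of these lists were those of the semaphorin receptor *plxna4* (log2 fold change 0.35, adjusted p = 0.275 with limma) and the ligand *vegfaa* (0.32, adjusted p = 0.316). Of the 20 genes of signalling below chemokine receptors, 17 were tested at 2 dpf and none was called. At an unadjusted p under 0.05 there were 2 higher and 2 lower by limma, against 24.6% of all genes in either direction. The lowest p was that of the inhibitory G protein subunit *gnai3*, at 1.24 and 1.30 FPKM in mutants at 2 dpf and 0.24 and 0.49 FPKM in controls (log2 fold change 0.74, adjusted p = 0.0602). At 2.5 dpf none of the 17 signalling genes tested was called, and 3 were positive (median −0.19, against 0.016 for all genes). Without overlap, 8 lay below controls, against 19.2% of all genes, and 1 above, against 24.3%. Limma found 0 higher and 2 lower at an unadjusted p under 0.05, against 12.2% of all genes in either direction. The medians of the lists at 2 dpf were 0.38 for the other chemokines, 0.053 for semaphorins, 0.25 for plexins, 0.20 for growth factors and receptors and −0.034 for signalling genes, beside 0.18 for all genes tested.

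For the 5 chemokine pathway genes, the genes with the most similar pattern over the 8 libraries were found among 11036 genes whose mean was 2 FPKM or more. The measure was the root mean square difference of log2(FPKM + 1) after each gene's mean was taken off, so the levels themselves can differ. Nearest to *cxcr4a* were the kinase gene *nuak2* (0.168), *CABZ01020840.1* (0.194) and *AL772382.1* (0.203). *nuak2* had means of 5.63 FPKM in mutants at 2 dpf, 2.30 FPKM in controls at 2 dpf, 3.58 FPKM in mutants at 2.5 dpf and 1.37 FPKM in controls at 2.5 dpf. Nearest to *cxcr4b* were the respiratory chain gene *ndufa4* (0.263), the transcription factor gene *ets2* (0.300) and the cardiac troponin gene *tnnt2a* (0.317), at larger distances than for the other 4 genes. Nearest to *ackr3b* were *fah* (0.0673), *exosc7* (0.0750) and *ramp2* (0.0907), nearest to *cxcl12a* were *cldn11b* (0.0620), *tead3a* (0.0811) and *rbfa* (0.0856), and nearest to *cxcl12b* were *gas1a* (0.0832), *slc38a10* (0.0843) and *ift57* (0.0844).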

How the data were processed

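RNA of *sox10*:kikGR+ cells from mutant and control embryos was measured by SMART-seq in 8 libraries, 2 per group. The authors aligned paired-end reads to GRCz11 with HISAT and assembled transcripts with StringTie. To estimate levels, the authors name StringTie and edgeR. Tool versions, and how reads shared by duplicate genes were assigned, are not given in the sources used here. The tables they deposited, 1 per stage, hold FPKM with 2 decimals, which were used on the scale the authors gave them. No counts were used, so depth is unknown and counting error could not be given. Libraries of different stages come from separate tables, and 83.0% of the shared identifiers list the same transcripts in both.

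Groups came from the genotype and age labels. Values were taken as log2(FPKM + 1), genes with a mean under 0.5 FPKM were left out, and limma 3.58.1 in R 4.3.3 (lmFit, then a trended eBayes) was used. The threshold was a Benjamini-Hochberg adjusted p of 0.05, adjusted over every gene in the fit. Mutants and controls were compared within each stage, the stages within each genotype where both tables hold the identifier, and the interaction over 8 libraries. The fit was run on simulated data with known changes, drawn with the spread that the fit itself assumes. That run checks the code and not the calls made here. The alternatives tried were no filter, a filter at 2 FPKM, a pseudocount of 0.1, median-ratio rescaling, quantile normalization, no variance trend, all 8 libraries in a single fit, a block on the replicate number, and each library left out. The genotype fit over both stages and the ratios were added after seeing the data.

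The genes named are the 9 genes, the targeted genes, the called genes of each pathway list or else the 1 gene with the lowest p at 2 dpf, the 3 nearest genes in level pattern, and markers named after their values were seen. The 9 genes and the lists were chosen with earlier results of these data known. Sequences are not used here.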

Additional observations from a re-analysis of the deposited data

How the results depend on the processing

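Over 54 fold changes (9 genes in 6 comparisons) and up to 15 alternatives each, 599 of 682 values kept their direction and their side of the threshold, 34 lost a call, 10 gained one and 39 changed sign. Where a library is left out, its group has 1 library, which is assumed to vary like the others. With 2 libraries per group and unknown depth, changes of low genes such as *nrp1b* are poorly resolved, and calls depend on how the spread is shared among genes. The causes were not tested.

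At 2 dpf the number of the 9 genes called (1) was 0 without a filter, 3 with a filter at 2 FPKM (*cxcr4a*, *ackr3b* and *nrp2a*), 0 with quantile normalization, 2 without a variance trend (*cxcr4a* and *nrp2a*) and 0 with any library left out. At 2.5 dpf (0) it was 1 with all 8 libraries in a single fit, where *cxcr4a* had a limma adjusted p of 0.0356. From 2 to 2.5 dpf in mutants (1) it was 0 without a filter, 0 with median-ratio rescaling, 0 with quantile normalization and 0 with any library left out. In controls (4) it was 0 without a filter, 2 with quantile normalization and 0 to 4 with a library left out. Over both stages (3) it was 2 to 4 with a library left out.

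The replicate numbers of the labels do not say what they pair. Deviations of libraries with the same number correlated at 0.14 at 2 dpf, 0.37 at 2.5 dpf, −0.11 between stages in mutants and −0.13 in controls. With the replicate number as a block, 2 of the 9 genes were called at 2 dpf (*cxcr4a* and *ackr3b*), 2 at 2.5 dpf (*cxcr4a* and *cxcr4b*), 0 between stages in mutants, 2 in controls, 4 over both stages and 0 in the interaction. Over all genes the block gave 830, 738, 4, 1113, 1892 and 0 calls in that order of comparisons, against 544, 0, 473, 3517, 1505 and 0.

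Other counts over all genes moved by more than 1.5 times. At 2 dpf there were 47 calls without a filter, 236 with quantile normalization, 293 with all 8 libraries in a single fit and 0 to 227 with a library left out. At 2.5 dpf there were 28 with a filter at 2 FPKM and 249 with all 8 libraries in a single fit. For the interaction there was 1 with a pseudocount of 0.1 and 0 to 1 with a library left out. Between stages in mutants there were 8 without a filter, 58 with median-ratio rescaling, 18 with quantile normalization and 0 to 5 with a library left out, and in controls 0 without a filter, 2242 with a filter at 2 FPKM, 990 with median-ratio rescaling, 526 with quantile normalization and 0 to 3424 with a library left out. Over both stages there were 990 with a filter at 2 FPKM and 661 to 1422 with a library left out.

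Signs that turned belonged to values that were not called. With median-ratio rescaling the log2 fold change was −0.079 for *cxcl12a*, −0.019 for *nrp1b* and −0.10 for *nrp2b* at 2 dpf, −0.043 for *cxcl12a*, −0.035 for *cxcl12b* and −0.32 for *ackr3b* between stages in mutants, −0.024 for *cxcl12a* and −0.25 for *ackr3b* in controls, −0.12 for *cxcl12a* and −0.044 for *nrp1b* over both stages, and 0.043 for *cxcr4a* and 0.25 for *cxcr4b* in the interaction. With quantile normalization it was −0.064 for *nrp1b* and −0.066 for *nrp2b* at 2 dpf, −0.094 for *ackr3b* between stages in mutants, −0.037 for *cxcl12a* and −0.048 for *nrp1b* over both stages, and 0.12 for *cxcr4a*, 0.062 for *cxcr4b* and 0.041 for *nrp1b* in the interaction, where a pseudocount of 0.1 gave 0.046 for *cxcr4a*. With a library left out, *cxcl12a* ranged from −0.13 to 0.49 and *nrp1b* from −0.043 to 0.25 at 2 dpf, *cxcl12a* from −0.23 to 0.056, *cxcl12b* from −0.19 to 0.17 and *nrp1b* from −0.065 to 0.013 at 2.5 dpf, and *cxcl12a* from −0.10 to 0.14 and *nrp1b* from −0.033 to 0.084 over both stages. In the interaction, *cxcr4a* ranged from −0.28 to 0.16, *cxcr4b* from −0.32 to 0.28, *cxcl12a* from −0.58 to 0.038 and *nrp1b* from −0.27 to 0.018.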

Other observations

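Further guidance systems of migrating NCCs were read from lists at 2 dpf. For comparison, limma called 3.52% of all genes at this stage and found 24.6% at an unadjusted p under 0.05, in either direction. The median of all genes lay above 0, so that most genes had a positive log2 fold change. Of 28 Eph and ephrin genes listed, 22 were tested and none was called by limma, with 5 higher and 0 lower at an unadjusted p under 0.05, and 21 of the 22 had a positive log2 fold change, with a median of 0.32 beside 0.18 for all genes. The receptor gene *ephb3a* had the lowest p, at 8.76 and 9.41 FPKM in mutants and 5.66 and 5.73 FPKM in controls (adjusted p = 0.107). For the 8 Slit and Robo genes listed, 7 identifiers were tested, among them both of *robo2*. All 7 were positive and none was called, with 2 at an unadjusted p under 0.05, and the repellent *slit3* was at 13.17 and 12.97 FPKM in mutants and 7.04 and 9.11 FPKM in controls (adjusted p = 0.111). Of the platelet-derived growth factor genes 7 identifiers were tested and none was called, with 3 at an unadjusted p under 0.05, and the ligand *pdgfab* was at 6.16 and 5.43 FPKM in mutants and 3.50 and 3.81 FPKM in controls (adjusted p = 0.132). For the 14 netrin, Dcc and Unc5 genes listed, 8 identifiers were tested, among them both of *neo1b*. None was called, with 0 at an unadjusted p under 0.05, and the receptor gene *unc5c* was at 3.92 and 3.63 FPKM in mutants and 1.80 and 3.13 FPKM in controls (adjusted p = 0.249).

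At 2.5 dpf limma called none of the genes of these lists. At an unadjusted p under 0.05 it found 0 of 25 Eph and ephrin genes, 0 of 8 Slit and Robo identifiers and 1 lower in each of the other 2 lists. The share of all genes was 12.2% in either direction. The medians at 2.5 dpf were 0.0043 for Eph and ephrin genes and 0.079 for Slit and Robo genes, beside 0.016 for all genes.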
